A study of Homo sapiens with 2 samples.

Results

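The HOXD cluster is a run of 9 homeobox genes on human chromosome 2, HOXD1, HOXD3, HOXD4, HOXD8, HOXD9, HOXD10, HOXD11, HOXD12 and HOXD13. They are described here out of 19775 genes that 1 pair of expression arrays could name. The members were taken by name, and a probe set, which measures a stretch of a transcript, was assigned to a member where the platform's annotation gave that symbol alone. By this rule 8 of the 9 members had 15 probe sets of their own. HOXD3 had none, since each of the 3 probe sets that list HOXD3 also lists HOXD4 and the locus LOC401021. Both arrays hold RNA of HEK293T, a line from human embryonic kidney that carries a viral large T antigen. Plasmids were delivered with polyethylenimine, a polymer used for transfection, and cells were harvested 48 h later. The GFP control received the vector pcDNA3.1-GFP, which expresses green fluorescent protein alone, and the other cells pcDNA3.1-IRX1::GFP, which expresses IRX1, a homeobox protein of the Iroquois family, joined to GFP. In both conditions only GFP-positive cells were kept by sorting. The arrays did not show the labelled IRX1, whose only probe set read 33.1 and 57, below the background level of both arrays. Whether that probe set covers the part of IRX1 in the plasmid was not given in the sources used here, so the conditions are named as labelled. The comparison asks how IRX1 changes gene expression. One array per condition was analysed here, whereas the legend of the study's array figure gives several replicates, and whether an array holds RNA of 1 culture or a pool was not given in the sources used here.

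HOX genes encode transcription factors that bind DNA through a homeodomain and give cells their position along the body axis. Within a cluster the genes lie in the order of their expression, so that HOXD1, HOXD3 and HOXD4 act in anterior regions, HOXD8 and HOXD9 in the trunk, and HOXD10 to HOXD13 in posterior regions, the limbs and the genitalia. Polycomb complexes keep the clusters silent, MLL complexes keep them active, CTCF and cohesin fold them into separate domains, and MEIS and PBX proteins bind DNA together with HOX proteins.

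The stretch before the start of transcription is shown for 3 members, HOXD4 and HOXD13, which had the most negative ratios of signals, and HOXD1, which had the highest. The sequences are from RefSeq (GRCh38.p14), 250 bases each on the plus strand, written 5′ to 3′, and capitals mark CpG dinucleotides, the pairs of bases at which DNA is methylated. They lie at chr2:176151300-176151549 for HOXD4, chr2:176092471-176092720 for HOXD13 and chr2:176188418-176188667 for HOXD1, each ending at the base before the first transcribed one.
HOXD4: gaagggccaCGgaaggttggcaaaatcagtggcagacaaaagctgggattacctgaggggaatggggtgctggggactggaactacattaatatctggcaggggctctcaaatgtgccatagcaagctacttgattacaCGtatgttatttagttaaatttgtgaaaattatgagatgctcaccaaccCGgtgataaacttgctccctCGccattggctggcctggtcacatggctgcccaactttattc
HOXD13: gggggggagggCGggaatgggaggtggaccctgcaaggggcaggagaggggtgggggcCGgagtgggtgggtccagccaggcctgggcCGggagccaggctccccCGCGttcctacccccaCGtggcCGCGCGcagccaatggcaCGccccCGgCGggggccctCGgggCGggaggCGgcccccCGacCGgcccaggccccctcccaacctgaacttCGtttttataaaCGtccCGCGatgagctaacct
HOXD1: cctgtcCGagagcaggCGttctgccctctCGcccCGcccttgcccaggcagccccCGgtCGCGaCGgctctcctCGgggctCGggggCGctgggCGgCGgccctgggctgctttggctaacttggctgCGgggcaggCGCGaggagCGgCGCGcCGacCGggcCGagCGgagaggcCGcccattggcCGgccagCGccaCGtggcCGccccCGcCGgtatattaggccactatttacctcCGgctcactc

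The HOXD4 stretch held 4 CpG and 47.6% G and C, the lowest of both among the 8 members in the table, which lacks HOXD9. HOXD13 held 21 CpG at 74% and HOXD1 31 CpG at 74.8%. Over the 8 members the medians were 22 CpG and 62.8%, against 11 CpG and 58% over all 35116 promoters. A search of both strands for ACANNTGT, the site described for Iroquois proteins, found no match in any of the 8 members, while 4.71% of all promoters held one. TGATNNAT, a site of PBX and HOX proteins, was found once, in HOXD11 (6.47% of all promoters). TATAAA, the TATA box, was found in HOXD13 alone, as a pair of overlapping matches that begin at positions -29 and -27 from the first transcribed base (10.7% of all promoters). TGACAG, a core of MEIS and TGIF sites, and AGGTCA, a half-site of nuclear receptors, were in none of the 8, against 13% and 12.1% of all promoters. A match is a run of letters and not a bound site, and no match says only that these letters are not in these windows.

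The values were MAS5 signals, linear intensities scaled within each array by the authors. The median over all probe sets was 171 in GFP control cells and 195 in IRX1::GFP cells. A log2 ratio is that of the IRX1::GFP signal over the GFP control signal, so a negative value is a lower signal with IRX1::GFP, and signals of different probe sets were not compared with each other. As background served the 90th percentile over 107 probe sets for olfactory receptors, which was 143 in GFP control cells and 179 in IRX1::GFP cells. Where 1 of the 2 signals was not above background, the fold is a lower bound against that level, and where neither was, no fold is given. Each gene took the value of its brightest probe set by mean signal, was kept if that mean reached 183, and was called if the signals differed at least 2-fold. A single array per condition allows no error between cultures and no p-value. The spread between a gene's probe sets, with an SD of 0.49 in log2 ratio over 5930 genes, is the only measure of noise in this pair of arrays and leaves out differences between cultures. The ACTB control probe sets, a sign of RNA quality, had a 3-prime over 5-prime ratio of 3.23 in GFP control cells and 1.64 in IRX1::GFP cells, and those of GAPDH 1.22 and 1.01. The part of RNA quality in the HOXD values was not tested. Of 6 genes reported for HEK293T, all 6 passed the filter, with vimentin at 38213 and 28168, and KRT18 and NEFL were called higher and LIN28B lower. Of 4 fibroblast markers only COL1A1 passed, 4.08-fold higher with IRX1::GFP. COL1A2, at 175 and 169, and DCN, at 184 and 117, were above background in the GFP control alone, and LUM in neither array. Of 5 blood cell markers measured, 2 passed the filter and 0 were called. Those 2 were HBB, at 242 and 263, and CD3E, at 244 and 168. CD79A, at 94.2 and 256, was above background with IRX1::GFP alone, while PTPRC, at 76.9 and 71.4, and LYZ were below it in both arrays. Of 3 endothelial markers, PECAM1, at 178 and 203, passed and was not called, and CDH5 and VWF were below background in both arrays.

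HOXD4 was the only HOXD gene called, and it was lower with IRX1::GFP. HOXD4 patterns the hindbrain and neck and is known to respond to retinoic acid. Its brighter probe set read 683 in GFP control cells and 310 in IRX1::GFP cells, both above background. That is 2.2-fold lower, a log2 ratio of -1.14, which passes 2-fold by a margin smaller than the SD of 0.49. In RNA pooled from many cells, fewer cells with HOXD4 RNA and less of it per cell cannot be told apart. Its dimmer probe set did not reach the filter and read 198 in GFP control cells and 50.8 in IRX1::GFP cells. This was lower too, by at least 1.11-fold, since the IRX1::GFP signal was not above background. The probe sets that HOXD4 shares with HOXD3 did not show this difference. The brightest of these 3 read 251 in GFP control cells and 249 in IRX1::GFP cells, and the other pairs of signals were 13.9 and 76.1 on one and 110 and 124 on the other, all below background. Which of the genes they list gave the signal cannot be told apart, so HOXD3, which acts in the vertebrae of the neck, has no value of its own.

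HOXD13 was lower on all 3 of its probe sets, each within 2-fold. HOXD13 shapes the digits, and its mutations cause synpolydactyly. The brightest probe set read 3060 in GFP control cells and 1832 in IRX1::GFP cells, 1.67-fold lower. The second read 1356 and 935, 1.45-fold lower. The third read 386 and 231, 1.67-fold lower, and all of these signals were above background. The log2 ratios, -0.74, -0.54 and -0.74, had a mean of -0.67 and an SD of 0.12, narrower than the SD of 0.49 over all genes. These probe sets share the 2 RNA samples and are no replicates of the condition.

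The 3 probe sets of HOXD10 differed among themselves. HOXD10 acts in limb motor neurons and is known as a target of the microRNA miR-10b, whose gene lies in this cluster and was not measured here. The brightest probe set read 4355 in GFP control cells and 3856 in IRX1::GFP cells, where the log2 ratio was -0.18. The second read 445 and 512, a ratio of 0.20. The third read 421 in GFP control cells and 167 in IRX1::GFP cells, the latter not above background, and was at least 2.35-fold lower. The SD of these 3 log2 ratios was 0.80, above the 0.49 over all genes, so the value of HOXD10 depends on the probe set. As the mean over probe sets it was -0.44, against -0.18 on the brightest.

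**Figure D1:**
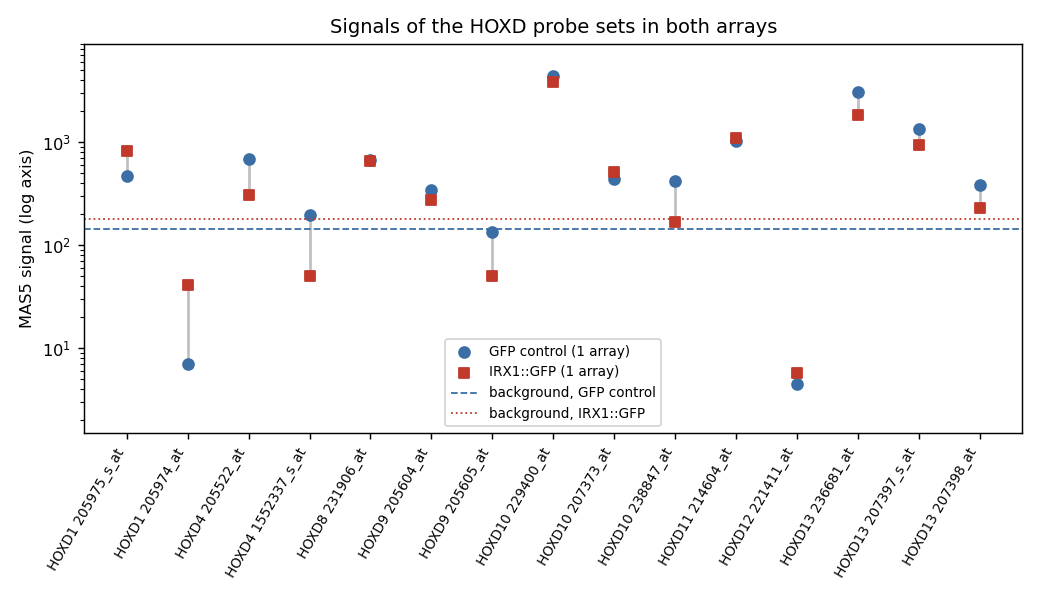
Points are the MAS5 signals (y, log axis) of the 15 HOXD probe sets (x, in cluster order and by falling signal within a gene) in the GFP control (blue circles) and with IRX1::GFP (red squares), 1 array each, with the background level of each array as a blue dashed and a red dotted line. All 3 HOXD13 pairs and both HOXD4 pairs have the red square below the blue circle, while HOXD8 and HOXD11 nearly coincide.

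The genes between these differed little. HOXD8, a gene of the trunk, read 671 in GFP control cells and 661 in IRX1::GFP cells, and its log2 ratio was -0.02. HOXD11, which together with its HOXA paralogue is needed for kidney development, read 1021 and 1091, a log2 ratio of 0.10. HOXD9, also a gene of trunk and limbs, read 346 and 276 on its brighter probe set, 1.26-fold lower. Its dimmer one read 135 and 50.3, not above background in either array. HOXD12, a gene of the digits, read 4.48 and 5.82 on its only probe set, far below background in both arrays, so no fold is given. The sizes of the log2 ratios of HOXD8, HOXD9 and HOXD11 were all smaller than the SD of 0.49. Under other scalings of the arrays HOXD9 reached that size, at -0.52 after median centring and -0.49 after quantile normalization.

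HOXD1, at the other end of the cluster, had the highest ratio of the members. HOXD1 is known from sensory neurons. Its brighter probe set read 473 in GFP control cells and 832 in IRX1::GFP cells, 1.76-fold higher, a log2 ratio of 0.82 and within 2-fold. The name of this probe set carries a suffix for probes that can match more than 1 transcript. The dimmer probe set of HOXD4 and the second of HOXD13 carry the same suffix. The HOXD1 probe set without the suffix read 6.97 and 40.8, below background in both arrays, so the value of HOXD1 rests on a single probe set.

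Of the 7 HOXD genes past the filter, 5 were lower and 2 higher with IRX1::GFP, and 1 was called lower and none higher. Among all 12193 genes past the filter, 5.34% were called lower and 10.4% higher, and after median centring 8.83% were lower and 7.29% higher. Among the 7572 genes in the range of mean signal of the HOXD genes, 311 to 4106, 5.69% were called lower. A single call among 7 genes is no result about the cluster. The median log2 ratio of the 7 was -0.18, within a range of -1.14 to 0.82, beside a median of 0.07 over all genes. The 10th and the 90th percentile of all genes were -0.76 and 1.02, and HOXD4 lay below the former, HOXD13 just above it. Counted by probe sets, 8 of the 11 past the filter were lower and 3 higher, and 2, those of HOXD4 and HOXD10, were called lower, beside 6.02% of all 22633 named probe sets past the filter.

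**Figure D2:**
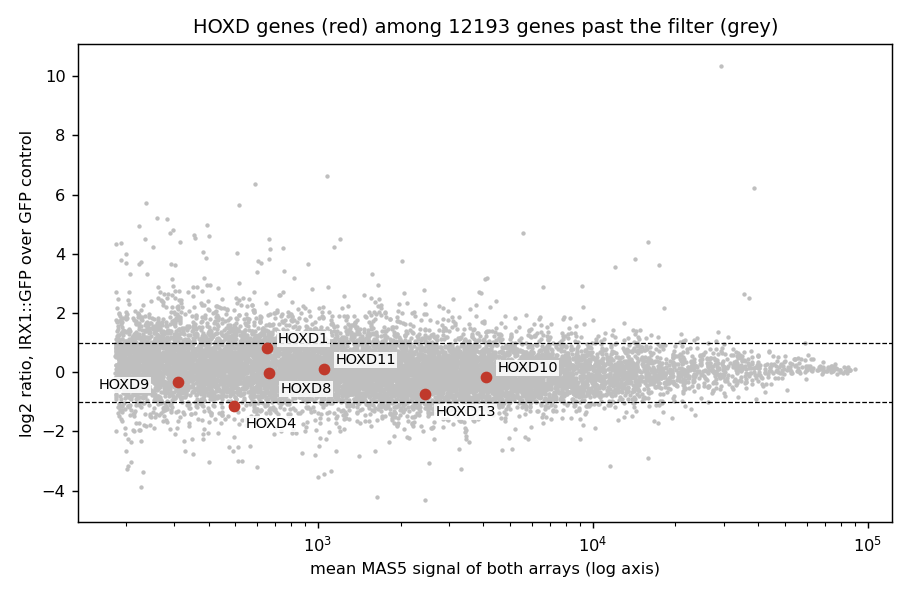
Each grey point is 1 of 12193 genes past the filter, with its mean MAS5 signal on a log axis (x) and its log2 ratio of IRX1::GFP cells over control cells (y), 1 array per condition, and the 7 HOXD genes are in red. Dashed lines mark 2-fold, and of the HOXD genes HOXD4, at -1.14, lies beyond one.

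Of the other transcripts of the cluster, HAGLR and HOXD-AS2 passed the filter, and both were within 2-fold on their brightest probe set. HAGLR, a long noncoding RNA that is transcribed on the strand opposite to HOXD1, read 405 in GFP control cells and 599 in IRX1::GFP cells, 1.48-fold higher, the same direction as HOXD1. Its other probe sets gave no such value, at 174 and 164 on one and 4.03 and 98.1 on the other, of which only the 174 was above background. HOXD-AS2, an antisense RNA on the HOXD4 side of HOXD8, read 444 and 555, 1.25-fold higher, whereas HOXD8 read nearly equal signals. HAGLROS, another noncoding RNA, read 80.5 and 4.68, below background in both.

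Outside the cluster, LNPK, which shapes the endoplasmic reticulum and lies past HOXD13, read 1257 and 1081. MTX2, a mitochondrial import gene past HOXD1, read 3468 and 2689, 1.29-fold lower. LINC01116, a noncoding RNA, read 172 and 104, above background in the GFP control alone, and did not pass the filter. The nearest measured genes past the filter on both sides of the cluster, LNPK and MTX2, thus differed by less than 2-fold. Farther out, ATF2, a stress-activated transcription factor, read 7562 and 4239, 1.78-fold lower, and CHN1, a regulator of the GTPase RAC, 2721 and 1506, 1.81-fold lower. ATP5MC3, a subunit of ATP synthase, read 38489 and 42246, and HNRNPA3, an RNA-binding protein, 19265 and 18992. The probe sets of HNRNPA3 differed in sign, with 2 of 3 below 0 and the other at 5338 and 8756, 1.64-fold higher. NFE2L2, the regulator of the response to oxidants, was the only one of these 7 genes past the filter that was called, at 9598 and 3596, 2.67-fold lower (3 of the 7 after median centring). Of the 7, 6 were below 0 in log2 ratio (7 after median centring and after quantile normalization), with a median of -0.37. Below 0 were 45.9% of all genes past the filter (57.9% after median centring and 48.4% after quantile normalization). Called lower were 5.34% of them (8.83% after median centring). With 7 genes and 1 array per condition, a difference from all genes was not tested.

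**Figure D3:**
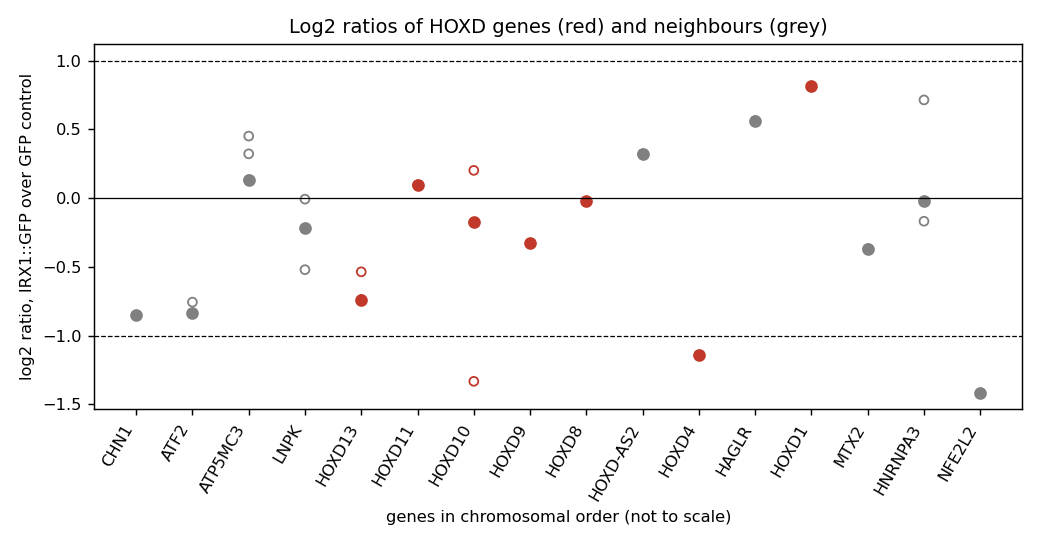
Log2 ratios of IRX1::GFP cells over control cells (y) of probe sets past the filter, for HOXD genes (red) and other genes in and around the cluster (grey), in chromosomal order but not to scale (x). Filled points are the brightest probe set of a gene, open points its others and dashed lines 2-fold, and filled points beyond a line are HOXD4, at -1.14, and NFE2L2, at -1.42.

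HOX genes of the same number in different clusters are paralogues, copies with related homeodomains. In all 6 pairs that could be formed with HOXC genes, the HOXD gene had the lower log2 ratio, with a difference from -0.20 for HOXD9 and HOXC9 to -2.47 for HOXD13 and HOXC13. HOXD13 read 1.67-fold lower where HOXC13 read 909 in GFP control cells and 3010 in IRX1::GFP cells. HOXD10 read 1.13-fold lower where HOXC10, at 1092 and 2490, was 2.28-fold higher. The differences for HOXD4, at -1.32, HOXD10, at -1.36, and HOXD13 were larger in size than 0.69, the SD that the noise between probe sets gives for a difference of a pair of genes, and those for HOXD8, HOXD9 and HOXD11 were not. The probe sets of HOXD10 had an SD of 0.80 of their own, so its difference depends on the probe set. Each HOXC gene had only 1 probe set, so none of their values could be compared with another. The probe set of HOXC13 carries the suffix for probes that can match more than 1 transcript. In all 6 pairs the HOXD gene kept the lower ratio after quantile normalization and loess. Median centring shifts all genes alike and cannot change a difference between genes. Against HOXB paralogues there was no common direction, as the HOXD gene had the lower ratio in 1 of 4 pairs (2 after quantile normalization). That pair was HOXD4 and HOXB4, with log2 ratios of -1.14 and -0.05. HOXD13 and HOXB13 had ratios of -0.74 and -1.37, although the 2 probe sets of HOXB13 differed in sign. With 1 array per condition, differences between clusters were not tested.

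**Figure D4:**
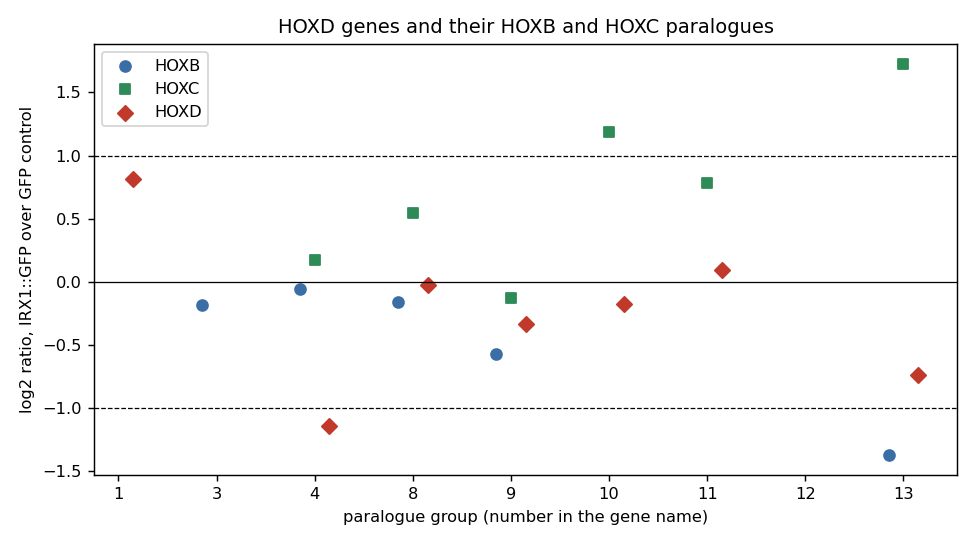
Log2 ratios of IRX1::GFP cells over control cells (y) of HOXD genes (red diamonds) and of the HOXB (blue circles) and HOXC (green squares) genes of the same paralogue group (x), brightest probe set past the filter, 1 array per condition, dashed lines at 2-fold. In each of the 6 groups with both, the red diamond lies below the green square.

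Genes that act on or with HOX genes are read against the 5.34% of all genes called lower and the 10.4% called higher. All 10 genes of CTCF and cohesin had a negative log2 ratio on their brightest probe set, with a median of -0.53. They were negative also after quantile normalization and loess. Median centring lowered every log2 ratio, so it could not make a negative one positive. Below 0 were 45.9% of all genes, and 56% of the 4804 genes in the same range of mean signal (67.6% after median centring). The probe sets of SMC1A, a subunit of cohesin, differed in sign, with 1 of its 4 below 0, and so did those of SMC3, with 2 of 4. Probe sets of both signs were also found for PDS5A, with 3 of 4 below 0, and for STAG1, with 2 of 3. NIPBL, which loads cohesin onto DNA, was the only one called lower, at 8030 and 3402 (3 of the 10 after median centring and 2 after quantile normalization), while CTCF itself read 4136 and 3507, 1.18-fold lower. Of 23 Polycomb genes, 4 were called lower and 1 higher (0 after each of the other scalings), with a median of -0.09. The lower ones were EZH2, the methyltransferase of the complex PRC2, at 12987 and 6201, its partners MTF2 and AEBP2, 2.17-fold and 2.31-fold lower, and RYBP of the complex PRC1, 2.4-fold lower. CBX7, a reader of the Polycomb mark, was higher, at 339 and 718. Of 14 genes of MLL complexes, KDM6A, a histone demethylase, was called lower, at 5123 and 2326, none was higher, and the median was 0.02.

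Among 7 HOX partners of the MEIS, PBX and PKNOX families, MEIS1 was called lower, by 4.8-fold, and PBX4 higher, by 2.53-fold. The median of the 7 was -0.59, with 4 below 0 and 3 above. Of 10 genes of retinoic acid signalling, which acts on the HOXD1 end of the cluster, 3 were called higher (1 after median centring) and 2 lower, beside the same 10.4% and 5.34% of all genes. CYP26B1, which breaks down retinoic acid, read 239 and 766, 3.21-fold higher, and ALDH1A3 and DHRS3, both enzymes of retinoid metabolism, were 2.23-fold and 2.26-fold higher. ALDH1A2, which makes retinoic acid, was 2.36-fold lower, from 2323 to 986, and the receptor gene RARB 2.5-fold lower, from 552 to 220. The median of the 10 was -0.02. Of 5 genes past the filter among those known as targets of HOXD proteins, EPHA7, an ephrin receptor gene bound by HOXD13, was called lower, at 634 and 243, and PLAU, a protease gene tied to HOXD3, higher, at 111 and 275. The control signal of PLAU was not above background, and against that level it was at least 1.92-fold higher, short of 2-fold. BMP4 read 359 and 685, BMP7 736 and 627, and RHOC, tied to HOXD10, 5378 and 6400, all within 2-fold. With 1 array per condition, neither a link between these genes and the HOXD values nor the part of the culture or the sort was tested.

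**Figure D5:**
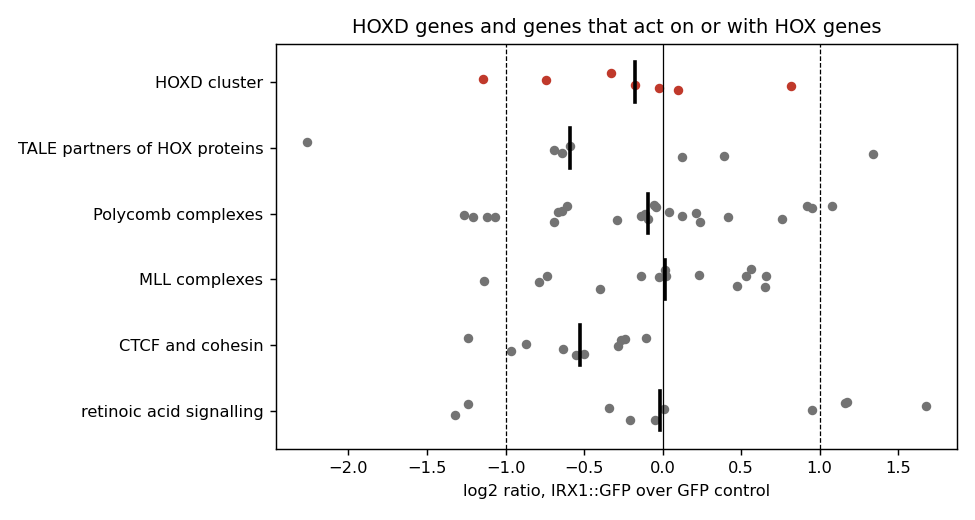
Points are log2 ratios of IRX1::GFP cells over control cells (x) of genes past the filter in 6 lists (y), with the HOXD genes in red, black bars at the medians and dashed lines at 2-fold, 1 array per condition, and the scatter within a row only separates points. All 10 points of CTCF and cohesin lie left of 0, with a median of -0.53, beside -0.18 for the HOXD genes and -0.59 for the MEIS, PBX and PKNOX partners.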

How the data were processed

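Total RNA of sorted HEK293T cells was hybridised to HG-U133 Plus 2.0 arrays, 1 for each condition. The values deposited by the authors were MAS5 signals, a linear intensity whose mean per array, without the lowest and highest 2%, came to 1000. The submitters' processing notes name MAS5 without a version, and its target value and detection calls were not given in the sources used here. Of 54675 probe sets, 62 of them array controls, the platform annotation gave 1 symbol for 41097, several for 1801 and none for 11777. Symbols were updated by gene identifier through RefSeq (GRCh38.p14), where 41043 were found, which also gave the order of genes and the promoters.

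Log2 ratios were computed for the brightest probe set of each gene whose mean signal reached the 50th percentile, and called at 2-fold. No test between conditions was made, since precision is limited by the number of arrays. Named were all HOXD members, the genes around the cluster and, from each list save those of the other HOX clusters, members at least 2-fold different and otherwise up to 3 with the highest mean signal. CTCF, SMC1A, SMC3, PDS5A, STAG1, the HOXB and HOXC paralogues and the marker genes fall outside this rule and were picked with their values in view. HOXA2, at least 1.91-fold lower, and HOXC5, 3.84-fold higher, have no HOXD gene of the same number and were not described. The members, lists and alternatives were chosen with earlier results of these data known. The alternatives were 3 scalings (median centring, quantile, loess with span 0.3), 3 filters, a floor for dim signals, the mean over probe sets, only probe sets whose names mark no shared probes, and probe sets in place of genes. The steps were tested on simulated data, with changes well above 2-fold and less noise than between the probe sets of a gene. How calls near 2-fold fare was not tested. The tools were Python 3.11.15 with pandas 2.3.3, numpy 2.4.6, statsmodels 0.14.6 and matplotlib 3.10.9.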

Additional observations from a re-analysis of the deposited data

How the results depend on the processing

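No paired analysis was possible because there is a single array for each condition, and for the same reason no array could be left out. In the alternatives that gave a value per gene and in which they passed the filter, HOXD1, HOXD4, HOXD8, HOXD9, HOXD10 and HOXD13 kept the sign of their log2 ratio. Counting by probe sets gave no value per gene, and by them HOXD10 had both signs. HOXD4 was called lower in all 8 that measured it, at -1.33 to -1.14. For HOXD1, HOXD4, HOXD8, HOXD9 and HOXD11, however, another filter, the floor or another choice of probe sets left the value unchanged where the gene was measured. Only the 3 scalings could move these values, and median centring lowered every ratio. HOXD13 ran from -0.93 to -0.67 and HOXD1 from 0.62 to 0.82, within 2-fold in each, and HOXD11, at 0.10, was -0.10 after median centring, which moved the median over all genes from 0.07 to -0.12. The HOXD median ran from -0.37 to -0.10. With a filter at the 75th percentile 3 HOXD genes were left, HOXD4 not among them, and 0 were called lower. By probe sets 2 were called lower. Over all genes, 1077 were called lower and 889 higher after median centring in place of 651 and 1267, so the larger count turned from higher to lower. Without a filter 3456 were higher and 1983 lower, with a filter at the 75th percentile 513 and 415, and by probe sets 2070 and 1363. The values of HOXD1, HOXD4, HOXD8, HOXD9 and HOXD11 each rest on 1 probe set past the filter.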
